A study of Homo sapiens with 6 samples.

Results

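The genes described here encode the machinery by which a cell makes, senses and disposes of cholesterol and fatty acids. A list of 38 genes was set by symbol, with 19 genes of sterol synthesis, 7 of SREBP regulation and sterol uptake, 9 of fatty acid synthesis and 3 of LXR-regulated efflux. All 38 were found among the 19792 genes with an expression value. The BT-549 line derives from a human breast cancer of the triple-negative type (TNBC), and all 6 libraries came from BT-549 cells that carry a doxycycline (DOX)-inducible WDR5 shRNA and were selected with puromycin. WDR5 is a shared subunit of the complexes that methylate histone H3 at lysine 4. RNA-seq was performed on 3 cultures given vehicle (0.1% DMSO) and 3 given DOX at 500 ng/ml, over 7 days in the paper's text, in medium with fetal bovine serum and insulin. No library without the shRNA, and no DOX-treated control shRNA library, was analysed here.

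The value analysed for each gene is its mean normalized count over all 6 libraries, so cells with and without WDR5 silencing are averaged in it. No value of a single library was analysed here, and the columns of the authors' own comparison were left aside. The results below therefore describe how much of each transcript these cells held, with no SD, and no statement is made on how a gene differed between DOX and vehicle. Where neighbouring genes are ranked, the spread between cultures that would separate them is not known. In bulk RNA, moreover, fewer cells expressing a gene and less RNA per cell cannot be told apart.

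Cholesterol is built from acetyl-CoA by way of mevalonate, squalene and lanosterol. Its synthesis is governed by SREBP transcription factors, which SCAP escorts out of the endoplasmic reticulum when sterols are scarce and which INSIG proteins hold back when sterols are plentiful. SREBP2 is best known for driving sterol synthesis and uptake, and SREBP1 for driving fatty acid synthesis and desaturation. LXR nuclear receptors respond to oxysterols and induce the efflux arm, which exports cholesterol and limits its uptake.

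SREBPs bind promoters together with NF-Y, which recognizes the CCAAT box, and Sp1, which recognizes the GC box. The promoter sequences were therefore examined first. RefSeq promoters (GRCh38.p14), spanning 250 bases before to 50 bases after a transcription start, were found for 33 of the 38 genes and covered 46 starts. FASN, SQLE, ACAT2, ABCG1 and FDFT1 had no entry. The stretches that follow, 5' to 3' on the strand of the gene, run from 10 bases before the first match to 10 bases after the last and lie upstream of the start. Capitals mark CCAAT or its reverse complement ATTGG and, in SREBF2, the sterol element CACCCCAC. SREBF2 is shown because it holds both elements, MVD, MSMO1 and EBP because they show how NF-Y boxes recur in sterol synthesis promoters, STARD4 and INSIG1 for sterol regulation, and SCD because it held by far the most counts.

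SREBF2, chr22:41832963-41833013, strand +: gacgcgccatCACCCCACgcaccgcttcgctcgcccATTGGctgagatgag
MVD, chr16:88663162-88663260, strand -: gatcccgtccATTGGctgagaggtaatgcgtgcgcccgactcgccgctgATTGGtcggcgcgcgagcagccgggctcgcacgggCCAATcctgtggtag
MSMO1, chr4:165327474-165327649, strand +: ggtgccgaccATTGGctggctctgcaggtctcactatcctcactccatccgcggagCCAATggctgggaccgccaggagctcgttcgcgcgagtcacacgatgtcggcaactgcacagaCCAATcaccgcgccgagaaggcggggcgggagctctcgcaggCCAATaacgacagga
EBP, chrX:48521607-48521792, strand +: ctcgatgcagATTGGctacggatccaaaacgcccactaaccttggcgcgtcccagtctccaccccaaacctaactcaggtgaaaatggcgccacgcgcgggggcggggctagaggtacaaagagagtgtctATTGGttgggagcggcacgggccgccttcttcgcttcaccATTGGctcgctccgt
STARD4, chr5:111512651-111512706, strand -: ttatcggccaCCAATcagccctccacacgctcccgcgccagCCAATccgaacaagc
INSIG1, chr7:155297698-155297722, strand +: ccggcctcccATTGGttgcggccgc
SCD, chr10:100346994-100347061, strand +: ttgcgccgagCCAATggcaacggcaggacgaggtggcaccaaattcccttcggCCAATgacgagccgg

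In the SREBF2 stretch, which begins 142 bases before the start, the sterol element and an NF-Y box in reverse orientation lie within 51 bases. MVD held 3 boxes, 1 forward and 2 reverse. MSMO1 held 4 boxes, of which 3 were forward. EBP held 3, all of them reverse. STARD4 and SCD each held 2 forward boxes, and INSIG1 held 1 in reverse. Orientation thus varied among promoters of the same pathway.

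Across the list, CCAAT on either strand was found in 22 of 33 genes (66.7%), as against 43.7% of the 10358 expressed genes with a promoter entry (expressed here means a mean of at least 10 normalized counts), and 39.7% of all promoters. The share was 81.2% in sterol synthesis, where 13 of 16 genes had a match and PMVK, CYP51A1 and LBR did not. It was 3 of 7 genes in SREBP regulation and uptake, 5 of 8 in fatty acid synthesis and 1 of 2 in the efflux arm. Repeated boxes were found in 15 of 33 genes (45.5%), 10 of them in sterol synthesis, whereas 16.5% of expressed genes had 2 or more. These counts take the start with the most matches, and counted by start, CCAAT was found in 56.5% of the list's starts and in 34.9% of those of expressed genes. The palindrome CCAATTGG, present for instance in IDI1 and NSDHL, counts on both strands. Such shares are a description of the letters in these windows, with no test of the difference.

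The GC box GGGCGG was found in 31 of 33 genes (93.9%) and in 77.2% of expressed genes, and the list's promoters were slightly richer in G and C, with a median upstream GC content of 67.2% as against 64.6%. The E-box CACGTG was found in 5 genes (15.2%, against 12.6% of expressed genes). Matches to CACCCCAC were limited to SREBF2 and ABCA1 (6.06%, against 3.63%). The other form searched, TCACNNCAC, was found in SREBF2, where it overlaps CACCCCAC, and in ACSS2 (6.06%, against 4.19%). The sterol synthesis promoters held neither form in these windows, which says only that these letters are not there. Within the list, the median level per kb of the median transcript was 2430.22 normalized counts in the 22 genes with a CCAAT match and 3705 in the 11 without. Per kb of the longest coding transcript the order turned, with medians of 1072 and 713. Among all expressed genes the medians were 559 with a match and 529 without on the first scale, and 233 and 219 on the second.

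**Figure D1:**
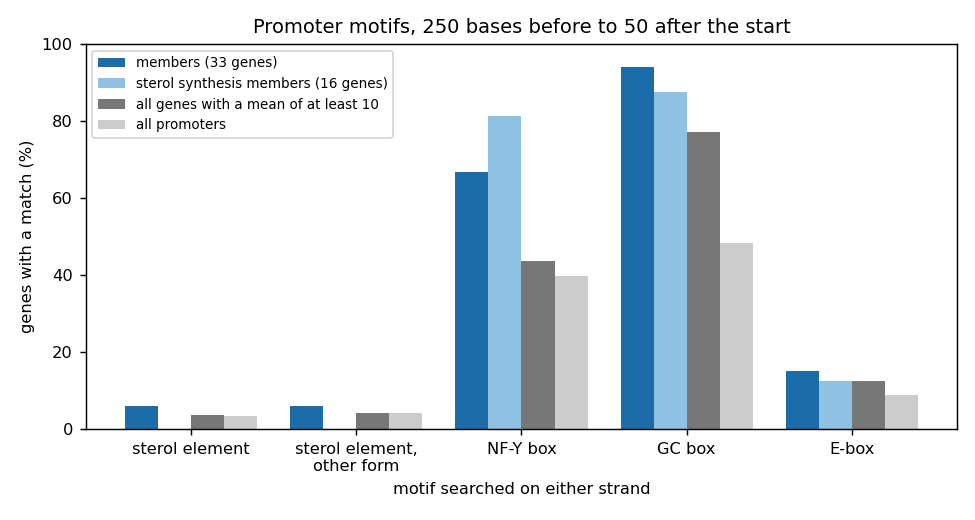
Share of genes (percent, linear axis from 0) whose promoter window holds each motif on either strand, for the 33 listed genes with an entry, the 16 of sterol synthesis, all expressed genes, and all promoters. The sterol elements are CACCCCAC and TCACNNCAC, the NF-Y box is CCAAT, the GC box is GGGCGG and the E-box is CACGTG; the NF-Y box stands at 66.7% in the list, 81.2% in sterol synthesis and 43.7% in expressed genes.

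The cells were next checked against their label. The mesenchymal genes VIM, FN1, SPARC, ZEB1 and CDH2 had mean normalized counts of 47782, 30461, 19657, 7333 and 4093. The estrogen and progesterone receptor genes ESR1 and PGR, the luminal factor FOXA1 and the epithelial adhesion gene EPCAM were all under 2, and the basal keratins KRT5 and KRT14 stood at 0.909 and 7.11. The epithelial cadherin CDH1 stood higher, at 59.6. The HER2 gene ERBB2 stood at 1221 and GATA3 at 362, so not every epithelial, receptor or luminal gene was near 0. Among markers of other cells, PECAM1 of endothelium stood at 2.86 and PTPRC of leukocytes at 44.7, while CD68 stood at 1813. The targeted gene WDR5 had a mean of 1143, which averages both groups and so checks no label. The mean normalized counts of all genes sum to 26551206, and the 10 highest genes hold 5.75% of them.

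Of the 38 genes, 37 reached a mean of 10 normalized counts and the same 37 reached 100. ABCG1 was the exception, at 0.354. At least 1000 was reached by 29 genes and at least 5000 by 15. Over all 19792 genes, 13548 reached a mean of 10, and no such count is given here for 100, 1000 or 5000. Since long transcripts collect more reads, levels of the listed genes were also compared after division by transcript length, and 2 lengths were used. Shares of counts and ranks by count are not divided by length. The first is the median length of a gene's transcripts in GENCODE 44 (per kb of the median transcript), and the second is the longest protein-coding transcript (per kb of the longest coding transcript). The first is short where a gene has many partial transcripts, and the longest coding transcript was at least 2 times longer than the median in 24 of the 38 genes. The median ratio of these lengths was 2.34 in the list and 2.30 over all genes.

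Per kb of the median transcript, 32 of the 38 genes lay at or above the median of 12932 expressed genes (503), and 26 lay in the part above the upper quartile (1619). Per kb of the longest coding transcript, 31 lay at or above the median of 12154 genes (219) and 24 above the upper quartile. By construction the median parts the genes evenly. The 6 genes under it on the first scale were MVK, HSD17B7, TM7SF2, ABCA1, MYLIP and ABCG1, which holds the entire efflux arm. On the second scale they were the same 6 and INSIG2. The list was not tested as a set, and the placement of its genes is a description.

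**Figure D2:**
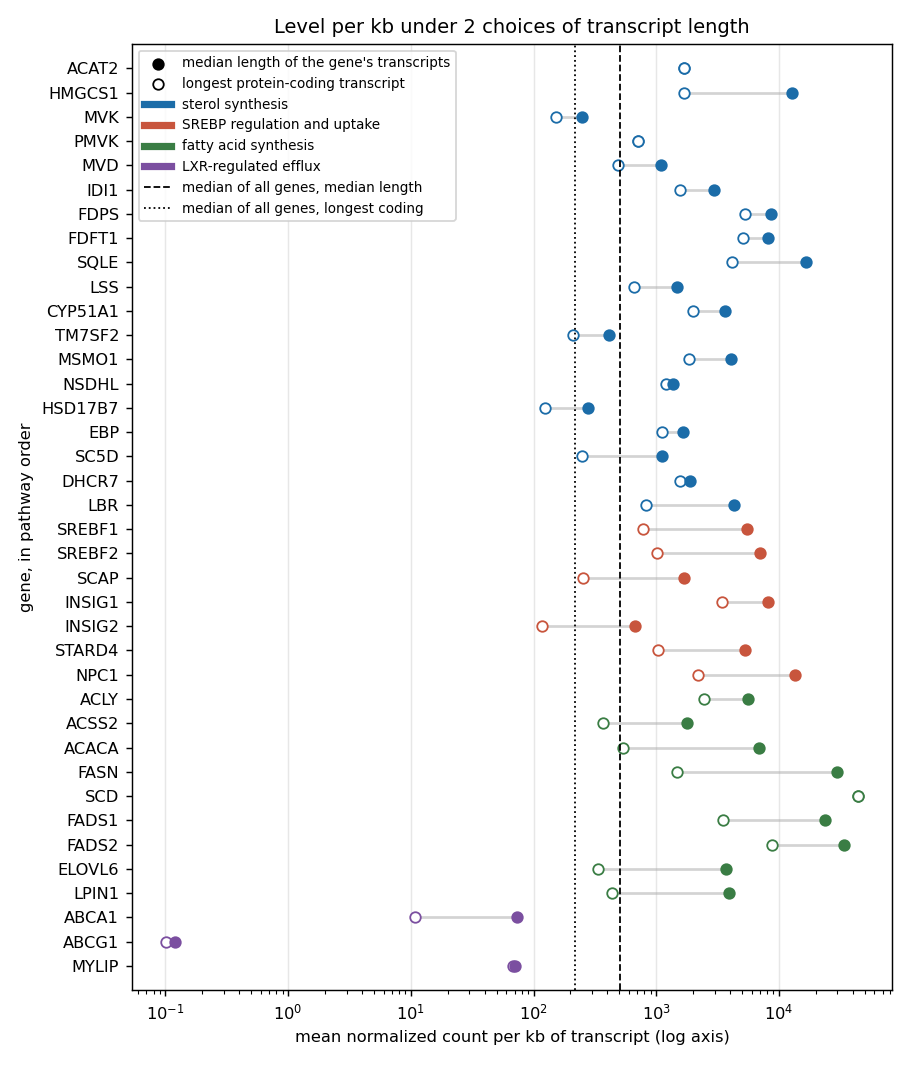
Mean normalized count per kb (log axis) for the 38 genes in pathway order, with filled circles for the median transcript and open circles for the longest protein-coding transcript, joined by a line. The dashed and dotted lines are the medians of all expressed genes on the first (503) and second (219) scale; most genes lie to the right of both, and the efflux genes lie to the left.

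Sterol synthesis held 0.296% of all normalized counts. Its levels ran from 248 to 16542 per kb of the median transcript (median 1697) and from 125 to 5311 per kb of the longest coding transcript (median 1210), and 16 of 19 genes lay at or above the median of all genes on either scale. The levels were uneven along the pathway. HMGCS1, which makes HMG-CoA, had a mean normalized count of 8996, that is, 12706 per kb of the median transcript and 1681 per kb of the longest coding transcript. ACAT2, the thiolase before it, stood at 1697 per kb on both scales.

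The enzymes that carry mevalonate to isopentenyl diphosphate were lower. The kinase MVK stood at 248 per kb of the median transcript, the lowest value of the 19, and at 151 per kb of the longest coding transcript. PMVK stood at 713 on both scales, and the decarboxylase MVD at 1089 and 490. The isomerase IDI1, the next enzyme, stood at 2963 and 1570. The segment from MVK to MVD thus lay below the genes on either side of it on both scales.

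The farnesyl to squalene steps were the high point. FDPS, which makes farnesyl diphosphate, stood at 8607 per kb of the median transcript and 5311 per kb of the longest coding transcript. FDFT1, squalene synthase on chromosome 8, had a mean normalized count of 12654, with 8122 and 5140 per kb. SQLE, the squalene epoxidase, had 12241 normalized counts, with 16542 and 4133 per kb. These were the 3 highest genes of sterol synthesis per kb of the longest coding transcript, and on the other scale HMGCS1 took a place among them. LSS, which closes the ring to lanosterol, stood lower, at 1491 and 654 per kb.

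After lanosterol, the levels varied from step to step. CYP51A1, the lanosterol demethylase, stood at 3627 per kb of the median transcript and 1988 per kb of the longest coding transcript, and MSMO1, which oxidizes the methyl groups, stood at 4042 and 1862. NSDHL, which acts after it, stood at 1361 and 1210. HSD17B7, the ketone reductase of the same cycle, had a mean normalized count of 191, with 276 and 125 per kb, the latter the lowest of the 19 on that scale. The cycle that removes the methyl groups thus included both high and low genes. The isomerase EBP stood at 1652 and 1108 per kb, the desaturase SC5D at 1121 and 249, and DHCR7, the reductase that yields cholesterol, at 1898 and 1568.

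TM7SF2 and LBR encode reductases of the same double bond in the sterol ring, and LBR is also a protein of the inner nuclear membrane that binds lamin and chromatin. TM7SF2 stood at 415 per kb of the median transcript and LBR at 4307, which makes LBR 10.37 times higher. Per kb of the longest coding transcript they stood at 209 and 832, and LBR was 3.99 times higher. LBR was the higher on each of the 5 length settings tried, with a size that depended on the length.

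**Figure D3:**
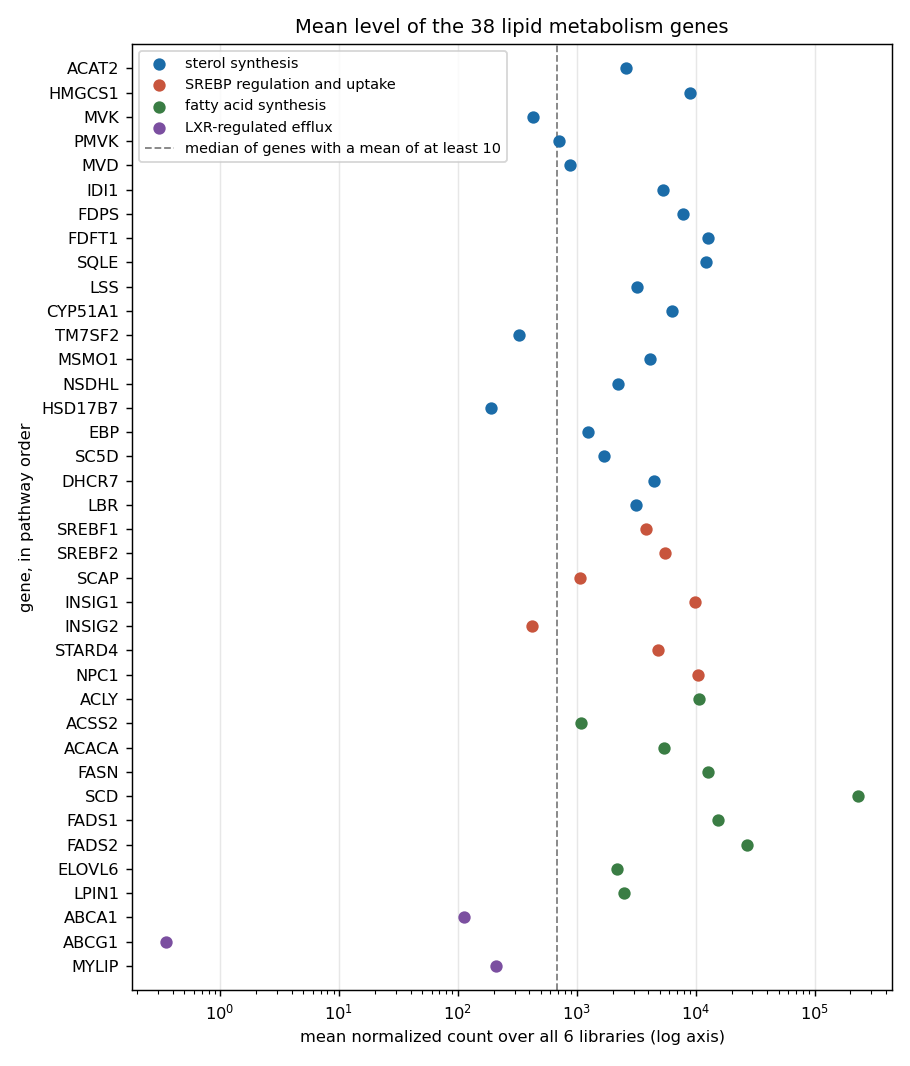
Mean normalized count over all 6 libraries (log axis) for the 38 genes in pathway order, colored by arm, with no division by length and no error bar, since no single library was analysed; genes of different length are not comparable on this axis. The dashed line is the median of genes with a mean of at least 10 (677); SCD stands apart at 231026 and ABCG1 at 0.354.

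Next, the regulators and the uptake genes were considered. These 7 genes ran from 667 to 13415 per kb of the median transcript (median 5471), all at or above the median of all genes, and from 117 to 3420 per kb of the longest coding transcript (median 1008), with INSIG2 below it. SREBF1, which encodes SREBP1, stood at 5471 and 777 per kb, and SREBF2, which encodes SREBP2, at 6972 and 1008. SREBF2 was 1.27 times higher than SREBF1 on the first scale and 1.30 times on the second, and between 1.25 and 1.49 times over all 5 length settings. With no spread between libraries, so small a ratio cannot be separated from equal levels. SCAP, the escort, stood lower, at 1681 and 251 per kb.

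The INSIG genes were far apart. INSIG1, on chromosome 7 (chr7:155297776-155310235 on GRCh38), had a mean normalized count of 9945, with 8129 per kb of the median transcript and 3420 per kb of the longest coding transcript. INSIG2, on chromosome 2, had 418, with 667 and 117 per kb. INSIG1 was thus 12.19 times higher on the first scale and 29.15 times on the second. INSIG1 is itself known as an SREBP target. In their windows, the promoter of INSIG1 held a CCAAT box, 5 upstream GC boxes and an E-box. Those of INSIG2 held no CCAAT box and 1 upstream GC box at each start. Whether these motifs bear on the levels of the 2 genes was not tested.

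STARD4, a carrier of sterols between membranes, stood at 5272 per kb of the median transcript and 1035 per kb of the longest coding transcript. NPC1, which passes cholesterol out of the lysosome, had a mean normalized count of 10491, with 13415 and 2204 per kb. NPC1 was the highest of the 7 on the first scale, and INSIG1 on the second. Among other genes of the pathway, the SREBP proteases MBTPS1 and MBTPS2 had mean normalized counts of 3862 and 2051. The lysosomal lipase LIPA, which frees the cholesterol that NPC1 exports, stood at 9537 per kb of the median transcript and 3610.02 per kb of the longest coding transcript. In a list of 15 further genes of SREBP processing and sterol handling, 13 lay at or above the median of all genes on either scale.

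**Figure D4:**
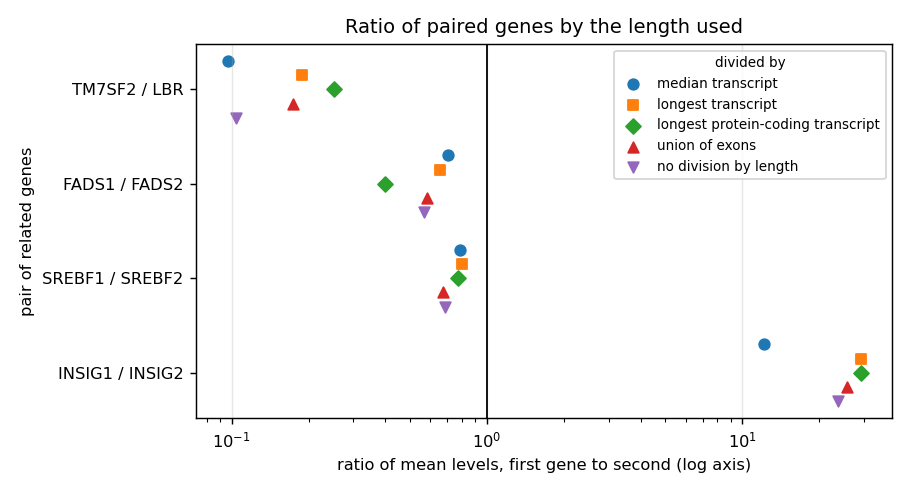
Ratio of mean levels (first gene to second, log axis) for 4 pairs of related genes, with a marker for each of 5 ways to divide by length; the vertical line marks equal levels. INSIG1 lies between 12.19 and 29.15 times INSIG2, the other pairs lie left of the line on every setting, and SREBF1 to SREBF2 lies nearest to it.

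The fatty acid arm held the most counts. Its 9 genes held 1.16% of all normalized counts and ran from 1768 to 44047 per kb of the median transcript (median 6945) and from 333 to 44047 per kb of the longest coding transcript (median 1485). All 9 lay at or above the median of all genes on both scales. Most of these counts were from SCD, the stearoyl-CoA desaturase that puts the first double bond into saturated fatty acids. The arm summed to 307669 normalized counts, of which SCD gave 231026. Without SCD, the arm held fewer counts than sterol synthesis, which summed to 78579. SCD is on chromosome 10 (chr10:100347233-100364826 on GRCh38, plus strand) and has a single annotated transcript of 5245 bases, so that its level does not depend on the length chosen.

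SCD had a mean normalized count of 231026. By count, with no division by length, it was second among all 19792 genes, just after a row named RNR2. It held 0.870% of all normalized counts. SCD made up 54.7% of the counts of the 38 genes, which together held 1.59% of all counts with it and 0.722% without it. At 44047 per kb, SCD led the list on both length scales. Of the expressed genes, 99.78% lay below it on the first scale and 99.93% on the second. VIM, for instance, stood higher on the first scale, at 45485 per kb. SCD stood 1.30 times above FADS2, the next gene of the list, per kb of the median transcript. Per kb of the longest coding transcript it stood 5.03 times above FADS2. Over all 5 length settings the ratio of SCD to FADS2 ran from 1.30 to 17.18, and it was 8.54 with no division by length. Such a share of 1 gene rests on the mean alone, and its evenness across the 6 libraries was not tested. A pseudogene named after SCD is annotated, and whether its reads were counted with SCD is not given in the sources used here.

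FADS2 and FADS1, which desaturate polyunsaturated fatty acids, lie side by side on chromosome 11. FADS2 had 27058 normalized counts and stood at 33865 per kb of the median transcript and 8754 per kb of the longest coding transcript, second of the 38 on both. FADS1 had 15274.5 normalized counts, with 23866 and 3500 per kb. FADS2 was higher by 1.42 times on the first scale and 2.50 times on the second. The exons of these genes overlap by 490 bases on opposite strands, and whether the counting used the strand is not given in the sources used here.

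The enzymes that build the chain were spread widely. ACLY, which makes cytosolic acetyl-CoA from citrate, stood at 5654 per kb of the median transcript and 2459.88 per kb of the longest coding transcript. ACSS2, which makes acetyl-CoA from acetate, stood lower, at 1768 and 371. ACACA, the acetyl-CoA carboxylase that commits carbon to fatty acids, stood at 6945 and 535, while ACACB, its paralogue at the mitochondrion, had a mean normalized count of 40.9 and stood at 42.6 and 4.36 per kb. ACACA was the higher of the carboxylase pair on both scales.

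FASN, the fatty acid synthase, had a mean normalized count of 12568. Of the 38 genes it had the largest ratio between the lengths. The median of its 13 annotated transcripts is 424 bases and its longest coding transcript 8464, a ratio of 19.96, so that FASN stood at 29642 per kb on the first scale and 1485 on the second. Its rank among the 38 was 3 on the first and 16 on the second, and that of ACACA moved as far, from 12 to 25. ELOVL6, which lengthens saturated chains, showed the same dependence, at 3705 and 333 per kb, as did LPIN1, the phosphatidate phosphatase, at 3958 and 437. ELOVL5, the elongase of polyunsaturated chains, stood at 14623 and 3769 per kb. Of 12 further genes of fatty acid synthesis and activation, 8 lay at or above the median of all genes on the first scale and 10 on the second.

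The 3 listed genes of the efflux arm stood at the other end. ABCA1, the transporter that loads cholesterol onto apolipoprotein A-I, had a mean normalized count of 112, with 72.9 per kb of the median transcript and 10.8 per kb of the longest coding transcript. MYLIP, the ubiquitin ligase that degrades lipoprotein receptors, had 209, with 71.3 and 68.1 per kb. ABCG1, which exports cholesterol to lipoprotein particles, had 0.354. All 3 genes lay below the median of all genes on both scales, and together they held 0.00121% of all normalized counts. ABCA1 lay above 19.4% of the expressed genes on the first scale and above 7.67% on the second.

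For ABCG1, a mean of 0.354 over 6 libraries is too low for any statement beyond its being near the floor, and no ratio was formed against it. Of the LXR genes, NR1H2, which encodes LXR beta, had a mean normalized count of 1025, and NR1H3, which encodes LXR alpha, had 22.7. They stood at 869 and 29.1 per kb of the median transcript and at 285 and 8.32 per kb of the longest coding transcript. Of 6 further genes of this arm, 3 lay at or above the median of all genes on the first scale and 4 on the second.

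Some values depend on how reads of overlapping genes were assigned. In 19 of the 38 genes, some exon bases overlap another annotated gene, and in 6 the overlap exceeds 10% of exon bases. In CYP51A1 it covers 74.1% of them, mostly with a gene on the same strand that spans its exons, and in EBP 36.4%, also on the same strand. In HMGCS1 (37.7%), ACAT2 (22.2%), FDPS (18.6%) and IDI1 (15.0%) the largest overlap is on the opposite strand. Pseudogenes are named after 5 of the genes, with 8 for FDPS, 3 each for IDI1 and CYP51A1, 2 for HSD17B7 and 1 for SCD. The levels of these genes are uncertain to that extent, and the effect was not tested.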

How the data were processed

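RNA-seq was analysed from BT-549/tet-WDR5shRNA cells, with 3 vehicle and 3 DOX libraries. By the paper's methods and the labels, the authors prepared stranded poly(A) libraries and aligned the reads to GRCh38 with STAR, and they normalized and compared gene counts with DESeq2. The labels name a column kit for the RNA and the paper Trizol. The gene counter, its use of strand and the annotation are not given in the sources used here. Per gene, the authors deposited a signal value, the normalized count averaged over all 6 libraries. Library depth is unknown from these values, and their precision is therefore not known. The deposited table also holds the authors' log2 fold changes, standard errors, statistics and p-values, and these were not used, so that no test between groups was run.

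Symbols were matched to GENCODE 44 (GRCh38), 17575 directly and 590 through an older symbol, and 1627 were not matched. Levels are mean normalized counts divided by the median length of the gene's transcripts or by its longest protein-coding transcript, in kb. Genes with a mean of at least 10 and a length (12932) served for comparison. Motifs were searched on both strands of RefSeq promoters. The genes named are the 38 of the list, WDR5, cell type markers, and pathway genes set beside a member of the same step. The members and lists were chosen with earlier results of these data known. The motif search and the percentile calculation were tested on simulated data, and the other calculations were not. The alternatives were other lengths, other minimums, protein-coding genes alone and the bases upstream of the start alone. Python 3.11.15 was used with numpy 2.4.6, pandas 2.3.3 and matplotlib 3.10.9.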

Additional observations from a re-analysis of the deposited data

How the results depend on the processing

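Over 32 alternative settings, 24 values stayed within 1.5 times of the value reported and 8 moved further. All 8 were ratios between paired genes. Counts that lay near the full list of 38 genes could not rise by 1.5 times, so their staying says little. None of the ratios between paired genes changed direction, and the other values are counts, which have no direction. The median levels with and without CCAAT, whose order turned with the length used, are not among these settings. The number of genes at or above the median of all genes ranged from 30 with no division by length to 35 with no filter on low values, with 31 for each of the other lengths and for a minimum of 50, and 32 among protein-coding genes. The ratio of INSIG1 to INSIG2 moved from 12.19 to 29.15 with the longest transcript, 29.15 with the longest protein-coding transcript, 25.75 with the union of exons and 23.8 with no division. The ratio of TM7SF2 to LBR moved from 0.0965 to 0.189, 0.251 and 0.174 with the first 3 of these lengths, and that of FADS1 to FADS2 from 0.705 to 0.400 with the longest protein-coding transcript. These shifts follow from the lengths by which the same counts were divided. Counting only the bases upstream of the start changed the number of genes with CCAAT from 22 to 21 and with CACGTG from 5 to 4. No paired analysis was possible because the column used holds no value of a single library. For the same reason, the alternatives in normalization, test, filter on low counts, pseudocount and libraries left out were not run. The low mean of ABCG1 limits what can be said of that gene in particular.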
